A study of Mus with 17 samples.

Results

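Fabp4, Lpl, Pparg, Lep, Scd1 and Fasn are genes of fat cells and of fatty acid synthesis, and 1 Ensembl transcript of each was followed here in the mouse abdominal aorta. The members are the 6 transcripts ENSMUST00000029041 (Fabp4), ENSMUST00000015712 (Lpl), ENSMUST00000000450 (Pparg), ENSMUST00000069789 (Lep), ENSMUST00000041331 (Scd1) and ENSMUST00000055655 (Fasn), taken by identifier, a choice made with earlier results of these data known. All 6 were listed in all 17 files and passed the filter on low values, which asked for 1 or more in 5 libraries, and so are 6 of 29983 transcripts tested and of 39614 listed in every file. They stand for single transcripts and not for the whole genes, since other transcripts of these genes, Ensembl or assembled, were not analysed here.

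The study infused wild-type C57BL/6 mice, a common inbred strain, for 42 days. Control mice received saline and double distilled water (n = 5). AngII mice received angiotensin II, a vasoconstrictor hormone, at 500 ng/kg/min, and double distilled water (n = 6). AngII+neferine mice received the same angiotensin II infusion with neferine, an alkaloid of lotus seeds, at 1 mg/kg/day (n = 6). Ages are not given in the labels. Whether 1 sample is 1 mouse or a pool is not stated either, so that the p-values rest on a spread between samples that may be technical. Whole vessel pieces were dissected, and in such bulk samples fewer cells of a type and less RNA per cell cannot be told apart.

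White adipocytes store fat as triglyceride, and fat surrounds the aorta on its outer side as perivascular adipose tissue. PPARG, a nuclear receptor, is the master regulator of adipocyte differentiation and switches on FABP4 and LPL among its targets. LPL frees fatty acids from circulating lipoproteins, FABP4 carries fatty acids within the cell, and leptin, the product of Lep, is the hormone by which fat tissue reports its stores to the brain. FASN builds saturated fatty acids from smaller units, and SCD1 puts a double bond into them.

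The values are a linear abundance signal per transcript whose unit the files do not name and whose read depth is unknown. Levels of different transcripts are therefore not compared with each other. Most libraries resembled each other, but 3 stood apart. Across transcripts, the rank correlation of AngII replicate 6 with the rest had a median of 0.455, while that of the other 16 was 0.606 to 0.680. In AngII replicate 2 and AngII+neferine replicate 1 the 10 highest transcripts took 30.9% and 28.9% of the signal, against 10.5% to 21.5% in the other libraries, and none of the 6 members was among those 10 in any library. The files of the neferine group list a different set of rows from the others, so that treatment and file set cannot be told apart in comparisons with neferine. Files and reference used here pair no other identifier with a gene name. Markers of smooth muscle, brown fat and other cell types and further genes of lipid synthesis were therefore not analysed, and the part of tissue composition in the results below was not tested.

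Fabp4 encodes the fatty acid carrier of adipocytes. Its signal in Control replicates 1, 2, 4, 5 and 6 was 552, 345, 679, 527 and 516, a mean of 524 ± 119 (SD, n = 5). In AngII it lay between 282 and 3105 with a median of 364, and with neferine between 523 and 4717 with a median of 884. The libraries with the highest Fabp4 were AngII replicate 2 and AngII+neferine replicate 1. AngII replicate 6 followed in its group at 701, and the other 4 AngII libraries lay between 282 and 419.7. Of the 6 neferine libraries 5 lay above the highest Control library, and the exception, replicate 4 at 523, lay among them. All 6 lay above the AngII median.

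Lpl, which encodes lipoprotein lipase, had a similar order of libraries. Control replicates 1, 2, 4, 5 and 6 were at 58.8, 81.0, 121, 66.1 and 66.4, a mean of 78.6 ± 24.8 (SD, n = 5). The AngII libraries lay between 44.1 and 407 with a median of 66.8, and the neferine libraries between 43.7 and 747 with a median of 192. AngII replicates 2 and 6, at 407 and 222, lay above every Control library. Of the neferine libraries 5 lay above every Control library, while replicate 4 held the lowest Lpl signal of all 17.

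Pparg, the nuclear receptor, was low and did not follow this order. Control replicates 1, 2, 4, 5 and 6 were at 1.58, 5.52, 1.64, 4.11 and 6.48, a mean of 3.86 ± 2.23 (SD, n = 5). In AngII Pparg lay between 0.412 and 6.15 with a median of 1.79, and with neferine between 2.19 and 5.71 with a median of 3.54. The 3 groups overlapped widely. AngII replicate 6, where Fabp4 and Lpl were second highest of the group, had the lowest Pparg of all 17 libraries.

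Lep, the leptin hormone of white fat, was close to the lower end of the signals. Among the Control libraries, replicates 2 and 5 listed it at 0, replicate 1 at 0.565, replicate 4 at 0.976 and replicate 6 at 3.23. An exact 0 in such files can be a failed estimate. In AngII, Lep lay between 0.0743 (replicate 4) and 7.33 (replicate 2) with a median of 2.74. With neferine, 4 libraries were at 0.0967, 0.128, 0.119 and 0.0585, and replicates 3 and 6 were at 2.96 and 2.37. AngII+neferine replicate 1, highest of all in Fabp4 and Lpl, was thus among the 4 neferine libraries with very little Lep signal.

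For the enzymes of fatty acid synthesis, Scd1 in Control replicates 1, 2, 4, 5 and 6 was at 428, 823, 1061, 696 and 876, a mean of 777 ± 235 (SD, n = 5). It ranged from 281 to 6361 with a median of 544 in AngII and from 797 to 3466 with a median of 1219 with neferine. AngII replicate 2 held the highest value of all libraries, and the other 5 AngII libraries were at most 614, below 4 of the 5 Control libraries. All 6 neferine libraries lay above those 5 AngII libraries, and 4 of the 6 lay above every Control library.

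Fasn, the fatty acid synthase, differed from Scd1 in the neferine group. Control replicates 1, 2, 4, 5 and 6 were at 154, 305, 276, 200.2 and 289, a mean of 245 ± 64.9 (SD, n = 5). AngII libraries lay between 120.2 and 1738 with a median of 194, and neferine libraries between 112 and 588 with a median of 299. AngII replicates 2 and 6, at 1738 and 486, were the highest of their group, and neferine replicate 4, at 112, was the lowest of all 17. The neferine values covered the whole Control range on both sides.

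**Figure D1:**
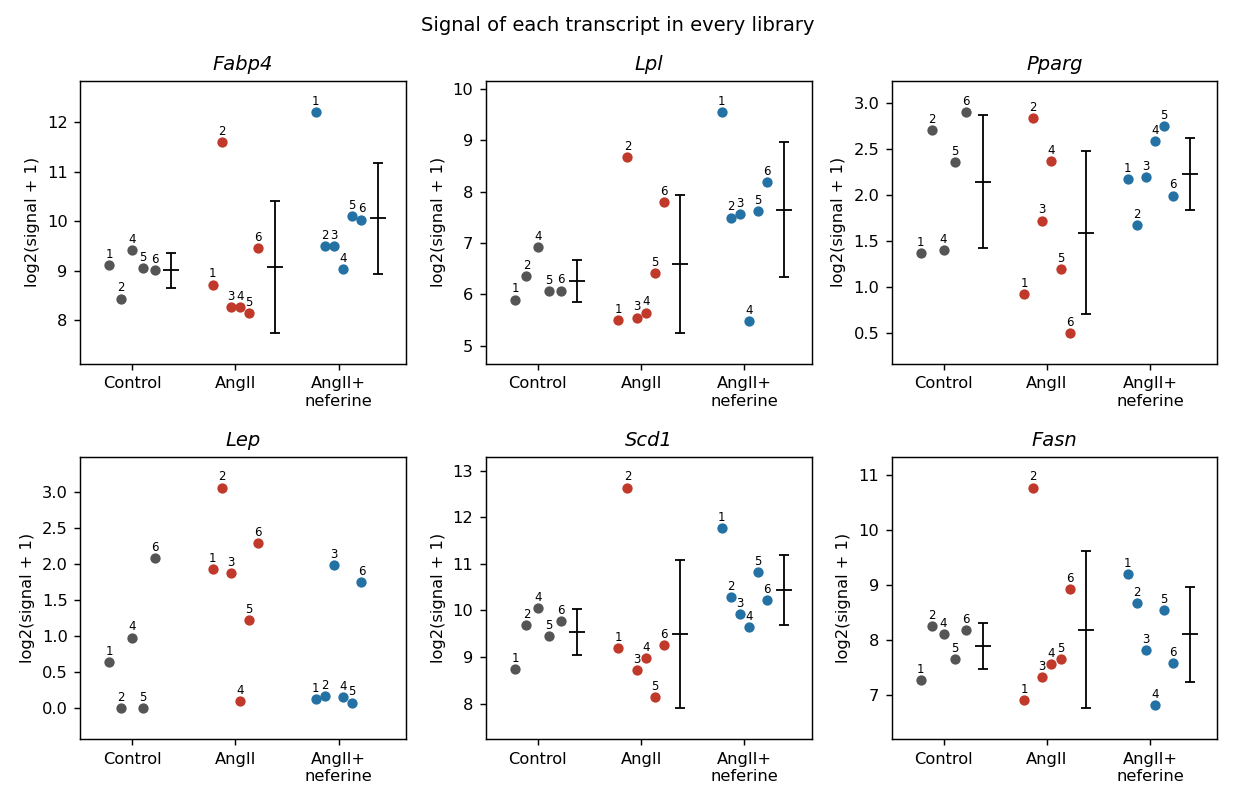
Signal of each of the 6 transcripts on the log2(signal + 1) scale (vertical axis) by group (horizontal axis). Each point is a library with its replicate number, and the bar beside each group is the mean ± SD on that scale (n = 5 in Control, n = 6 in the others), not drawn for Lep, which 2 libraries list at 0. AngII replicate 2 and AngII+neferine replicate 1 are the highest libraries in Fabp4, Lpl, Scd1 and Fasn, but not both in Pparg and Lep.

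Fabp4, Lpl, Scd1 and Fasn together took 0.281% to 0.481% of the signal in Control. They took 2.22% in AngII replicate 2 and 0.206% to 0.373% in the other AngII libraries. With neferine they took 1.67% in replicate 1 and 0.363% to 0.779% in the others. In these 4 transcripts AngII replicate 2 and AngII+neferine replicate 1 were the highest 2 libraries of the 17, a pattern found in 1183 (3.95%) of the 29983 transcripts tested.

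AngII was compared with Control to see whether these transcripts differ after the infusion. Differences are on the log2(signal + 1) scale, which understates those of the low transcripts Pparg and Lep. None of the 6 passed the test (limma, adjusted p under 0.05 over all 29983 transcripts), where the background was 0% of transcripts called. The largest difference was in Lep, higher in AngII by 1.01 ± 0.53 (SE) on the log2 scale (limma, adjusted p = 0.725), with 5 of 6 AngII libraries above the Control median. The size of this difference depended on the pseudocount and the libraries: it was 2.06 with a pseudocount of 0.1, 0.40 with a pseudocount of 5, 0.65 with library weights and 0.54 without the 3 libraries that stand apart. Pparg differed by -0.56 ± 0.41 (SE; limma, adjusted p = 0.785), by -0.34 without AngII replicate 6 and by -0.37 without Control replicate 6. The differences of Lpl at 0.33, Fasn at 0.30, Fabp4 at 0.07 and Scd1 at -0.05 were smaller than their SE of 0.58 to 0.64. Their 95% intervals were wide, from -1.19 to 1.33 for Fabp4 and from -1.35 to 1.24 for Scd1, so that a difference of 1 in either direction lay within them. At an unadjusted p under 0.05 there were 0 of the 6 members, against 7.25% of all transcripts, and no member had groups that did not overlap, against 0.807%. The exact rank sum test called 0 of the 29983 transcripts, with 1485 at an unadjusted p under 0.05 and a smallest possible p of 0.00433. To pass the adjustment, far more transcripts would have to reach that p than the 0.807% whose groups did not overlap. This 0 therefore adds nothing to the limma result.

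The direction of 3 members turned when AngII replicate 2 was left out. Without it the differences were -0.43 for Fabp4, -0.08 for Lpl and -0.22 for Fasn, and that of Scd1 was -0.68 (limma, adjusted p of 0.706 to 0.980). The difference of Fabp4 was also below 0 without Control replicate 2 (-0.07) or AngII replicate 6 (-0.00478), and that of Scd1 was above 0 without Control replicate 4 or 6 or AngII replicate 1, 3, 4 or 5 (0.01 to 0.22). AngII replicates 2 and 6 were the highest of their group in Fabp4, Lpl, Scd1 and Fasn, so that leaving them out lowers the AngII means. With all 3 libraries that stand apart left out, Fabp4 was lower in AngII by 0.66 ± 0.23 (SE; limma, adjusted p = 0.556, unadjusted p = 0.0143) and Scd1 by 0.78 ± 0.29 (SE; limma, adjusted p = 0.572, unadjusted p = 0.0191). Lpl and Fasn then differed by -0.49 and -0.53, and Lep by 0.54 ± 0.56 (SE; limma, adjusted p = 0.851), less than Fabp4 and Scd1. These 2 of the 6 members were at an unadjusted p under 0.05, against 7.45% of all transcripts in the same fit, and 0 members passed the adjusted threshold, against 0.02%.

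Neferine was added to the infusion to see what it changes relative to AngII alone. Again 0 of the 6 members passed (limma), with 0% of all transcripts called, and 0 members were at an unadjusted p under 0.05, against 5.22%. The exact rank sum test called 0 transcripts, with 1329 at an unadjusted p under 0.05. Too few reached its smallest possible p of 0.00216 to pass the adjustment, so this 0 adds nothing to the limma result. Lpl was higher with neferine by 1.05 ± 0.61 (SE) on the log2 scale, Fabp4 by 0.99 ± 0.57, Scd1 by 0.95 ± 0.58 and Pparg by 0.64 ± 0.39, each with a limma adjusted p of 0.952. Single libraries moved these values. Without AngII+neferine replicate 1 the difference of Fabp4 was 0.56 and that of Lpl 0.67. Without AngII replicate 2 it was 1.49 for Fabp4, 1.58 for Scd1, 1.47 for Lpl and 0.89 for Pparg, and these 4 members were at an unadjusted p under 0.05, against 7.12% of all transcripts, with a smallest limma adjusted p of 0.311. Without AngII replicate 6 the difference of Pparg was 0.42. Lep differed the other way, by -1.03 ± 0.50 (SE; limma, adjusted p = 0.952), and 5 of the 6 neferine libraries lay below the AngII median. Fasn differed by -0.08 ± 0.55 (SE; limma, adjusted p = 0.997), and by 0.43 without AngII replicate 2, 0.06 without AngII replicate 6, 0.17 without AngII+neferine replicate 4 and 0.02 without AngII+neferine replicate 6. The median difference of the 6 was 0.80, with Lep and Fasn below 0, against -0.00420 over all transcripts tested. It was 0.60 without AngII+neferine replicate 1 and 1.18 without AngII replicate 2. This median describes members chosen with earlier results known and is no test of them as a set. No member had groups that did not overlap, against 0.263%.

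Leaving out AngII replicate 2, AngII replicate 6 and AngII+neferine replicate 1 narrowed the SE of Fabp4, Lpl, Scd1 and Fasn. That of Pparg went from 0.39 to 0.40 and that of Lep from 0.50 to 0.56. The AngII libraries left out were the highest of their group in Fabp4, Scd1 and Lpl, as AngII+neferine replicate 1 was of its own. Their removal from AngII favours a separation of these members, so the values of this smaller set are a description. Fabp4 was then higher with neferine by 1.29 ± 0.23 (SE; limma, adjusted p = 0.113), Scd1 by 1.42 ± 0.29 (SE; limma, adjusted p = 0.196) and Lpl by 1.49 ± 0.44 (SE; limma, adjusted p = 0.488). None passed, against 15 (0.05%) of all transcripts in that fit. All 3 were at an unadjusted p under 0.05, at 9.46e-05, 0.000308 and 0.00479, against 7.08% of all transcripts at that level. In the remaining 4 AngII libraries Fabp4 had a mean of 328 ± 61.9 (SD, n = 4), against 822 ± 243 (SD, n = 5) with neferine. Scd1 had 448 ± 129 (SD, n = 4) against 1204 ± 383 (SD, n = 5), with no overlap between the libraries of either member, against 2.87% of all transcripts in these libraries, and for Lpl the neferine replicate 4 lay below all 4. Two-sided exact permutation tests on these libraries gave an unadjusted p of 0.0159 for Fabp4, 0.00794 for Scd1 and 0.0556 for Lpl, where 0.00794 is the smallest p that 5 against 4 libraries allow. Lep differed by -0.45 ± 0.56 (SE; limma, adjusted p = 0.915) and Fasn by 0.52 ± 0.34 (SE; limma, adjusted p = 0.811).

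Neferine with angiotensin II was compared with Control to see which differences from saline are present when both are given. No member was among the 11 transcripts (0.0367%) that limma called. Lpl was higher by 1.38 ± 0.64 (SE) with a 95% interval of 0.02 to 2.74 (limma, adjusted p = 0.563, unadjusted p = 0.0465), the only member at an unadjusted p under 0.05, against 8.74% of all transcripts. Fabp4 was higher by 1.06 ± 0.60 (SE; limma, adjusted p = 0.648) and Scd1 by 0.90 ± 0.61 (SE; limma, adjusted p = 0.721). In two-sided exact permutation tests of these 2 groups alone, p was 0.0346 for Scd1, 0.0368 for Fabp4 and 0.0498 for Lpl. These p-values are not adjusted for the 18 tests made with all libraries, nor for their repeats without the 3 libraries that stand apart. Fasn at 0.21 ± 0.58, Pparg at 0.08 ± 0.41 and Lep at -0.03 ± 0.53 (each ± SE) lay within their errors (limma, adjusted p of 0.946 to 0.994). No member had groups that did not overlap, against 2.08% of all transcripts. Without the 3 libraries that stand apart the differences were 0.63 ± 0.22 for Fabp4, 0.64 ± 0.28 for Scd1 and 1.00 ± 0.41 for Lpl (each ± SE; limma, adjusted p of 0.286 to 0.414). These 3 of the 6 members were at an unadjusted p under 0.05, against 11.1% of all transcripts, and 0 passed the adjusted threshold, against 0.354%. Exact permutation tests on these libraries gave an unadjusted p of 0.0317 for Fabp4, 0.0556 for Scd1 and 0.0873 for Lpl. Without AngII+neferine replicate 1 alone the difference of Fabp4 was also 0.63 (limma, adjusted p = 0.849), and 0 members were at an unadjusted p under 0.05, against 8% of all transcripts. Without AngII replicate 2 alone 3 members were, against 9.26%. That library is in neither of these 2 groups, so the differences stayed the same. Only the SE from the spread shared by all groups fell, for Scd1 from 0.61 to 0.34. These 3 comparisons share libraries pairwise, so their values are given side by side and not related to each other.

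**Figure D2:**
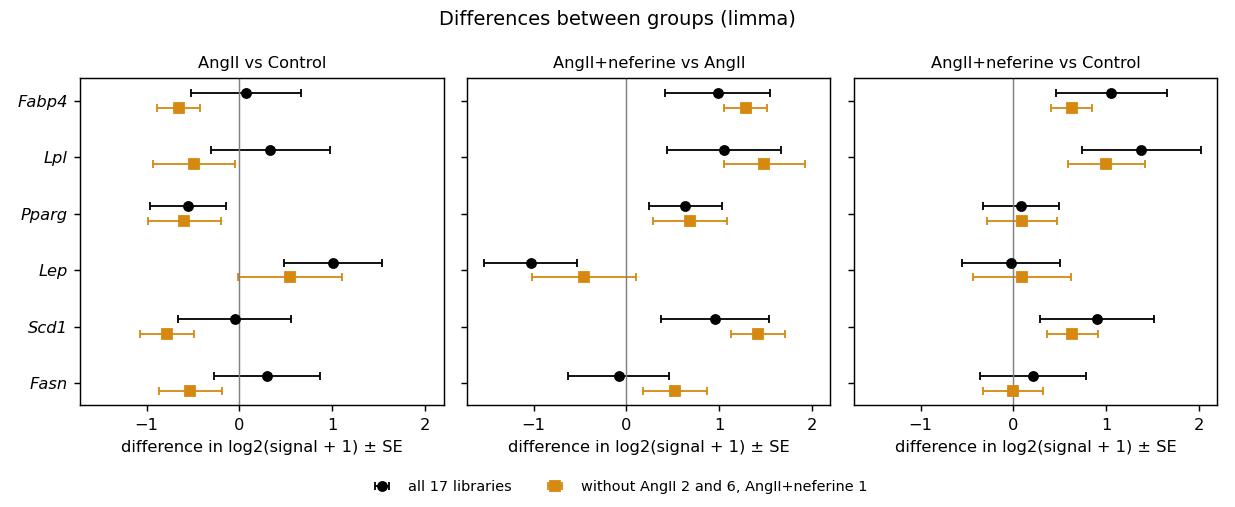
Difference in mean log2(signal + 1) ± SE (horizontal axis, limma) for each transcript (vertical axis) in the 3 comparisons, first group minus second, with all 17 libraries (black circles) and without AngII replicates 2 and 6 and AngII+neferine replicate 1 (orange squares). Fabp4, Lpl and Fasn change sign between both sets in AngII against Control, and Fabp4, Lpl and Scd1 lie above 0 in both sets in the comparisons with neferine.

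How far libraries of 1 group lay apart was described by the SD of log2(signal + 1) within groups. It was 1.14 for Lpl, 1.09 for Scd1, 1.06 for Fabp4, 1.02 for Fasn, 0.93 for Lep and 0.70 for Pparg, against a median of 0.60 over all transcripts tested. Lpl lay at percentile 88.0 of that distribution and Pparg at 60.6. Most transcripts differ in level from the members, so the SD was also set against transcripts with a mean within 0.5 on the log2 scale. There Scd1 lay at percentile 95.7 (of 23 transcripts), Lpl at 93.1, Fasn at 89.8, Fabp4 at 85.3 (of 34), Lep at 82.1 and Pparg at 51.6.

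The members were then compared with each other over the 17 libraries after the group means were subtracted. All 6 pairs of Fabp4, Lpl, Scd1 and Fasn had a positive correlation that passed the test, and none of the other 9 pairs did (permutation tests with 100000 resamples, Benjamini-Hochberg over the 15 pairs). Fabp4 and Scd1 had a Pearson r of 0.892 (permutation p = 2e-05, adjusted p = 0.0001) and a Spearman rho of 0.735 (permutation p = 0.00099, adjusted p = 0.00495). For Scd1 and Fasn r was 0.873 (permutation p = 4e-05, adjusted p = 0.00015) and rho 0.809 (permutation p = 0.00019, adjusted p = 0.00142). Lpl and Fasn had an r of 0.864 (permutation p = 1e-05, the smallest that the resamples can give, adjusted p = 0.0001) and a rho of 0.860 (permutation p = 3e-05, adjusted p = 0.00045). The other 3 of these pairs had r of 0.856 (Fabp4 and Lpl), 0.813 (Fabp4 and Fasn) and 0.742 (Lpl and Scd1), with rho of 0.686, 0.674 and 0.703 (permutation, all adjusted p at most 0.00935). All signals of a library share its total. Pairs of other transcripts were not correlated in this way, so the share of all pairs that would pass is not known.

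In each of these 6 pairs the libraries farthest from the median were AngII replicate 2 and AngII+neferine replicate 1. Without them r was 0.772 for Lpl and Fasn, 0.717 for Fabp4 and Lpl, 0.643 for Fabp4 and Scd1 and 0.642 for Scd1 and Fasn (permutation, adjusted p of 0.00735 to 0.0383). It was 0.530 for Fabp4 and Fasn and 0.464 for Lpl and Scd1, and these 2 pairs no longer passed (permutation, adjusted p = 0.129 and 0.197), so that their call rests on those libraries. Whether r differed between these 2 pairs and the other 4 was not tested. With AngII replicate 2 alone left out, rho no longer passed for Fabp4 and Lpl (0.391), Fabp4 and Fasn (0.271) and Lpl and Scd1 (0.476; permutation, adjusted p of 0.248 to 0.518). Without AngII replicates 2 and 6 and AngII+neferine replicate 1 together, r of the 6 pairs was 0.134 to 0.632 and none passed (permutation, n = 14, adjusted p of 0.226 to 0.694). No pair with Lep or Pparg passed over all libraries: r of Lep with the other 5 lay between -0.03 and 0.36, and that of Pparg with the other 5 between -0.03 and 0.46 (permutation, adjusted p of 0.127 to 0.978). Both are low transcripts, whose differences this scale understates, so that a lack of correlation is weakly shown. Fabp4 and Lep did pass without AngII+neferine replicate 1 (r = 0.554; permutation, adjusted p = 0.0399).

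**Figure D3:**
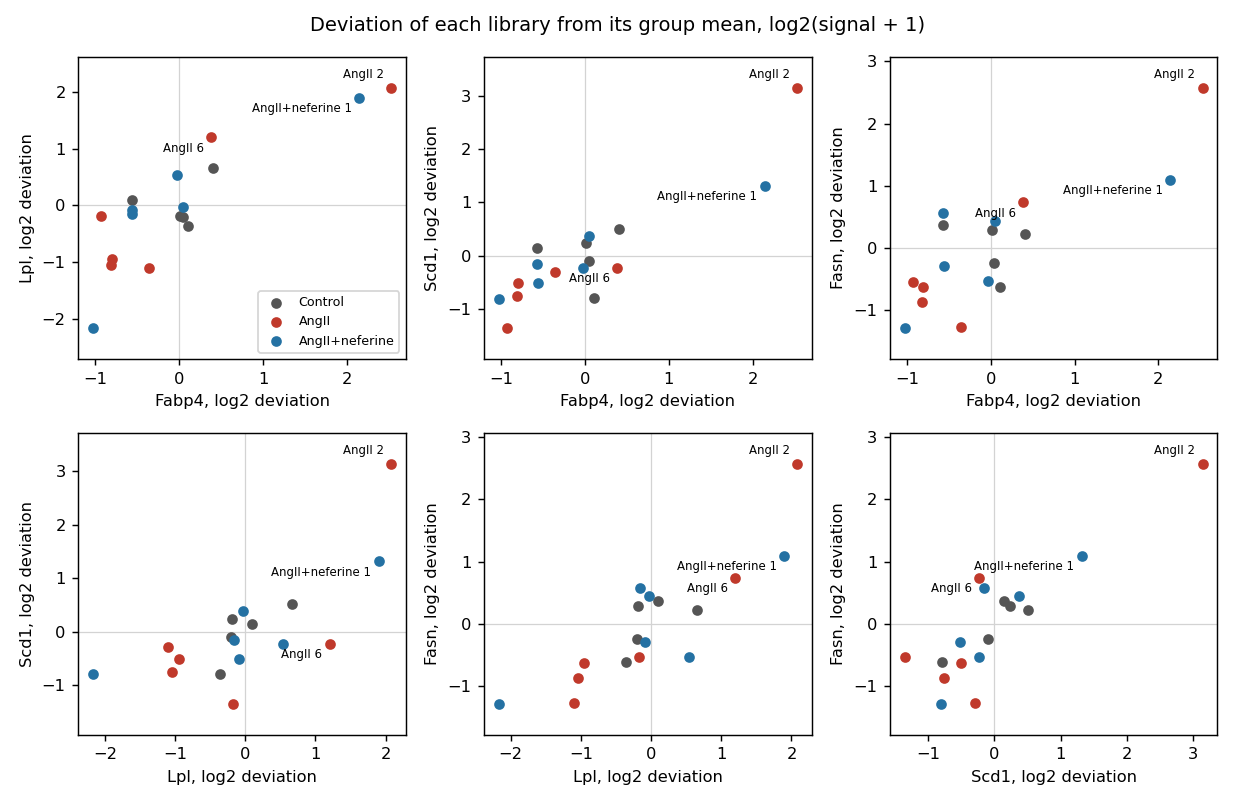
Deviation of each library from its group mean in log2(signal + 1) for the 6 pairs of Fabp4, Lpl, Scd1 and Fasn (both axes, 17 libraries coloured by group). AngII replicate 2 and AngII+neferine replicate 1 lie at the upper right of each panel, and r over all libraries is 0.742 to 0.892.

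Over all 17 libraries these 4 transcripts shared much of their spread, though no pair passed without the 3 libraries that stand apart. Their ratios within a library were therefore also compared between groups. This needs no scaling of the libraries, and the length of each transcript cancels between groups. These tests were chosen after the values were seen. The ratios to Fasn share its signal as denominator and are not separate observations. Lpl over Fasn was 0.383, 0.266, 0.436, 0.330 and 0.230 in Control replicates 1, 2, 4, 5 and 6. It lay between 0.234 and 0.456 in AngII with a median of 0.327, and between 0.389 and 1.52 with neferine with a median of 0.680. The neferine libraries 1, 3, 5 and 6 lay above all others. The log2 ratio was higher with neferine by 1.15 than in AngII (two-sided exact permutation p = 0.0108, adjusted p = 0.0779 over the 18 ratio tests) and by 1.18 than in Control (exact permutation p = 0.0152, adjusted p = 0.0779).

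Scd1 over Fasn was 2.79, 2.70, 3.84, 3.48 and 3.03 in Control, between 1.26 and 4.86 in AngII with a median of 2.67, and between 3.07 and 7.10 with neferine with a median of 5.37. The log2 ratio was higher with neferine by 1.04 than in AngII (exact permutation p = 0.0152, adjusted p = 0.0779) and by 0.69 than in Control (exact permutation p = 0.0173, adjusted p = 0.0779). Fabp4 over Fasn had medians of 2.46 in Control, 1.71 in AngII and 3.94 with neferine, and its log2 difference between neferine and AngII was 1.07 (exact permutation p = 0.0260, adjusted p = 0.0935). None of the 18 ratio tests passed the adjustment. Among the ratios that do not involve Fasn, the smallest adjusted p was 0.607, for Lpl over Scd1 between neferine and Control (exact permutation). Without the 3 libraries that stand apart the differences of the ratios to Fasn between neferine and AngII were 0.98, 0.90 and 0.76 for Lpl, Scd1 and Fabp4 (exact permutation, adjusted p of 0.25 to 0.4).

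**Figure D4:**
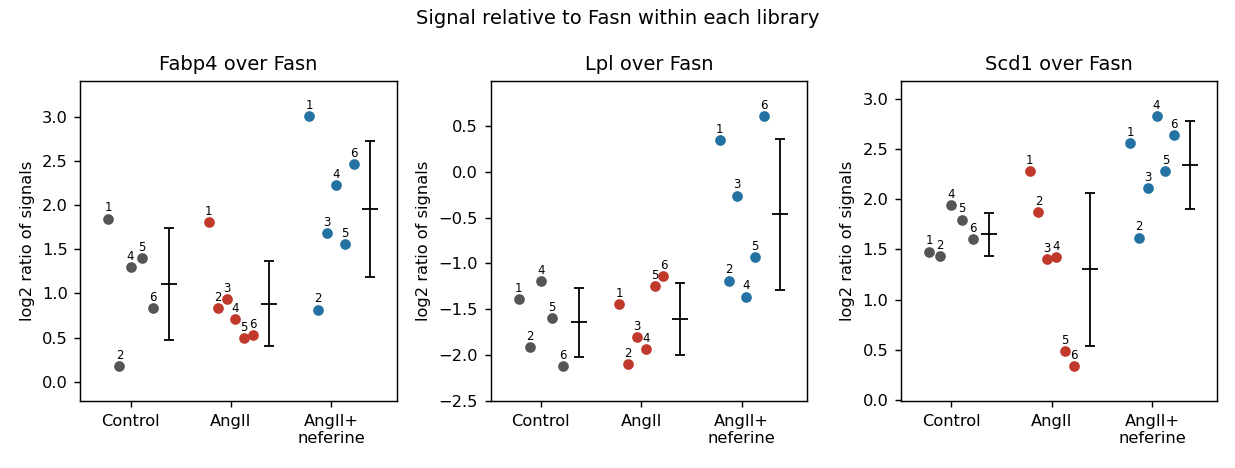
Log2 of the signal of Fabp4, Lpl and Scd1 over that of Fasn in the same library (vertical axes) by group (horizontal axis). Points are libraries with their replicate numbers, and bars beside each group are the mean ± SD of the log2 ratio (n = 5 in Control, n = 6 in the others). Neferine libraries 1, 3, 5 and 6 lie above all other libraries in Lpl over Fasn.

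The pattern over the 17 libraries was summarised as the mean of the 6 members, each scaled to the same spread, and all 25940 tested transcripts with a mean of at least 1 were ranked by their Pearson r with it. The most similar was the assembled transcript MERGE.47317.3 (r = 0.969), followed by ENSMUST00000079597 (r = 0.955) and ENSMUST00000067620 (r = 0.953), whose gene names are not given in the files. MERGE.47317.3 was at 41.7 in AngII replicate 2 and at 27.1 in AngII+neferine replicate 1, and between 3.38 and 12.3 in the other libraries. Among the members themselves, Scd1 took place 6 in this order (r = 0.946), Fabp4 42, Fasn 67 and Lpl 133. Pparg and Lep came at places 2064 and 2801, with r of 0.424 and 0.345. The members are part of the mean they are ranked against, and the ranking is a description of these libraries with no test.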

How the data were processed

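Each deposited file holds 1 sample's signal per transcript, at or above 0 and on a linear scale, with no unit in the file headers. How the authors made it (aligner, quantification, genome build, annotation) is not given in the sources used here, and limma is named in the submitters' processing notes with neither version nor role. The files hold no counts, so no interval for counting error was computed. Of the identifiers 39614 were listed in all 17 files.

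Values were tested as log2(signal + 1) with limma 3.58.1 in R 4.3.3 (trended, robust empirical Bayes), all 17 samples in 1 fit of the group means without covariates, after keeping transcripts with at least 1 in at least 5 libraries. P-values were Benjamini-Hochberg adjusted over all 29983 transcripts, with a threshold of 0.05. Groups and replicate numbers came from the sample titles. The script was tested on simulated data. Exact permutation tests and correlations used Python 3.11.15. The transcripts named are the 6 members and the 3 transcripts most like their mean. Members and lists were chosen with earlier results of these data known. The planned lists of other adipocyte, lipid and cell type genes and the promoter motifs could not be used, because the RefSeq table of GRCm38.p6 matched 0 identifiers and no sequences were used here.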

Additional observations from a re-analysis of the deposited data

Results flagged for a closer look

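The 6 members and 6 ratios in 3 groups each made 36 sets of 5 or 6 values, examined on the linear scale and not as log2. A single library stood well apart in 7 of these sets. The limit used has a chance rate of about 5% for 1 set taken alone. The sets share libraries, the ratios reuse the members, and linear signals stretch high values. The count of 7 therefore cannot be weighed against that rate and is only a description. AngII replicate 2 was far above its group in Fabp4 at 3105, in Scd1 at 6361 and in Fasn at 1738. AngII+neferine replicate 1 was far above its group in Fabp4 at 4717 and in Lpl at 747. The ratio of Fabp4 over Lpl was highest in AngII+neferine replicate 4, at 11.97, the library with the lowest Lpl. The ratio of Fabp4 over Fasn was 3.49 in AngII replicate 1.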

How the results depend on the processing

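The number of members called was 0 in all 3 comparisons under the 29 alternatives run for each. Among these, the exact rank sum test called no transcript at all, because too few reached its smallest possible p to pass the adjustment. Its 0 therefore adds nothing. Differences of Fabp4, Lpl and Scd1 between neferine and either other group, of Pparg and Lep between AngII and Control or neferine, kept their direction in all of them, though not their size; with a minimum of 5, Lep had no value because it was not tested. Without 1 library, the members at an unadjusted p under 0.05 numbered 0 to 1 between AngII and Control, 0 to 4 between neferine and AngII and 0 to 3 between neferine and Control. With only the 2 groups fitted (limma) they numbered 3 between neferine and Control, against 3114 of 29983 transcripts, and 0 in the other comparisons. With library weights they numbered 3 between neferine and AngII, against 2182 of 29983, 1 between neferine and Control and 0 between AngII and Control.

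In AngII against Control, Fabp4 was -0.0407 with libraries scaled to the same total, and Fabp4, Lpl and Fasn were -0.33, -0.10 and -0.12 with library weights and -0.66, -0.49 and -0.53 without AngII replicates 2 and 6 and AngII+neferine replicate 1. Leaving out 1 library at a time gave -0.43 to 0.26 for Fabp4, -0.0840 to 0.55 for Lpl, -0.22 to 0.55 for Fasn and -0.68 to 0.22 for Scd1. Fasn between neferine and AngII was 0.24 with weights, 0.52 without the 3 libraries and -0.34 to 0.43 without 1 library. Between neferine and Control, Fasn was -0.00596 without the 3 libraries and -0.00596 to 0.47 without 1, Pparg -0.11 to 0.27 without 1, and Lep 0.00944 with a pseudocount of 0.1, 0.0891 without the 3 libraries and -0.28 to 0.31 without 1. These are log2 differences, none past the threshold.

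Counts over all transcripts moved more. Against 0 between AngII and Control, limma called 1 with a minimum of 5, 7 when only the 2 groups were fitted, 6 with weights, 6 without the 3 libraries and 0 to 12 without 1 (12 without AngII replicate 6). Against 0 between neferine and AngII it called 2 when only the 2 groups were fitted, 3 with weights and 15 without the 3 libraries. Leaving out 1 library gave 0 to 11 there (11 without AngII replicate 6). Against 11 between neferine and Control it called 2 with a pseudocount of 5, 4 without a filter, 2 with equal totals, 26 with 2 groups, 63 with weights, 106 without the 3 libraries and 0 to 31 without 1 (31 without AngII replicate 6 and 27 without AngII+neferine replicate 1; 0 without Control replicate 2, 4 or 5 or AngII+neferine replicate 2). In that comparison 0 were called by the exact rank sum test. Too few transcripts reached its smallest possible p of 0.00433 to pass the adjustment.

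With the replicate block, Scd1 in AngII against Control was 0.0765 and 0 transcripts were called between neferine and Control; it changed no other direction of a member and no member's call. The labels do not say that a number pairs samples, and the deviations of the 16 same-numbered pairs correlated between -0.15 and 0.06, with 1 of 17 libraries most like one of its own number.

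Correlations without the 3 libraries were 0.524 (Fabp4 and Lpl), 0.515 (Fabp4 and Scd1), 0.134 (Fabp4 and Fasn), 0.343 (Lpl and Scd1), 0.632 (Lpl and Fasn) and 0.540 (Scd1 and Fasn), none past the threshold, -0.372 (Fabp4 and Pparg) and -0.152 (Lep and Fasn). Lpl and Pparg had 0.0859 without removal of group means. Without 1 library, Fabp4 had -0.317 to 0.267 with Pparg and 0.0604 to 0.554 with Lep (the highest, without AngII+neferine replicate 1, past the threshold), Lpl and Pparg -0.396 to 0.158, Pparg and Lep -0.320 to 0.171, Pparg and Fasn -0.135 to 0.464, Lep and Scd1 -0.0666 to 0.417, and Lep and Fasn -0.0384 to 0.363. By Pearson's r the other pairs kept sign and call without 1 library. By rho, calls were lost without AngII replicate 2 (3 pairs), without AngII replicate 6 for Fabp4 with Lpl (0.571) and Fasn (0.562), and without AngII+neferine replicate 4 for Fabp4 and Fasn (0.576) and Lpl and Scd1 (0.576).

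Without 1 library the log2 ratio difference between neferine and AngII was -0.30 to 0.0793 for Fabp4 over Lpl, -0.13 to 0.16 for Fabp4 over Scd1 (-0.13 without the 3 libraries) and -0.10 to 0.40 for Lpl over Scd1. Fabp4 over Scd1 was -0.0562 to 0.35 between AngII and Control and -0.0213 to 0.38 between neferine and Control (-0.00748 without the 3), and Lpl over Fasn -0.0861 to 0.15 between AngII and Control. The cause of these changes was not tested. Leaving out libraries in ratios and 1 at a time in correlations was chosen after seeing the data.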
